A study of Mus musculus with 12 samples.

Results

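The 50 genes described here drive or mark the cell division cycle, and were taken by name from a table of 35869 gene symbols measured in mouse colonoids. They comprise 4 genes of G1 entry and arrest, 19 genes of S phase and 27 genes of mitosis. All 50 were in the table and all 50 passed the filter on low counts, among 13987 genes tested. Colonoids are epithelial structures grown in a gel from isolated colonic crypts, here of C57BL/6 mice, in medium with EGF and L-WRN conditioned medium, which is rich in Wnt3a, R-spondin and noggin. The 4 groups of 3 libraries were cultures left unstimulated, cultures given recombinant mouse IL-22 at 1 ng/mL, cultures given recombinant mouse IL-1b at 100 ng/mL, and cultures given both cytokines, each treatment for 12 h. All groups shared the strain and the medium, and the labels do not say whether the 3 libraries of a group came from separate mice, so the p-values reflect the spread of these libraries alone. IL-22 signals to epithelium mainly through STAT3, and IL-1b through NF-kB.

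Cells enter the cycle when D-type cyclins switch on their kinases and release E2F factors from the RB family, which turns on the cyclin E genes and the genes that copy DNA. Origins are licensed when Cdc6 and Cdt1 load the ring-shaped Mcm2 to Mcm7 helicase, and Cdc45 and the GINS subunits complete the helicase that fires. The mitotic genes are transcribed later, largely under Foxm1, B-Myb and the DREAM complex, and their products build the spindle, attach chromosomes to it and destroy cyclin B at anaphase. In the colonic epithelium cycling cells sit in the lower crypt, and a colonoid culture mixes cycling and differentiated cells. In RNA from whole cultures, fewer cells in a phase and less RNA per cell cannot be told apart.

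The promoters of the S phase and mitotic members differ in the letters they carry, so 6 of them are shown first. The windows run from 250 bases before to 50 bases after the RefSeq start of transcription (GRCm38.p6), and 38 of the 50 members had one. Capitals mark TTTGAA, the letters of the cell cycle homology region that DREAM and Foxm1 complexes use; CCAAT, the letters used by NF-Y; and TTTGGCGC, TTTCCCGC or TTTCGCGC, which are common forms of an E2F site, each on either strand. Top2a (chr11:99024140-99024439, minus strand), Plk1 (chr7:122159185-122159484, plus strand) and Aurka (chr2:172370521-172370820, minus strand) are mitotic genes with both TTTGAA and CCAAT. Ccnb1 (chr13:100786437-100786736, minus strand) is a mitotic gene with CCAAT and no TTTGAA in the window. Mcm5 (chr8:75109259-75109558, plus strand) and Cdc6 (chr11:98907901-98908200, plus strand) are replication genes with E2F letters, which overlap each other in Mcm5.
Top2a: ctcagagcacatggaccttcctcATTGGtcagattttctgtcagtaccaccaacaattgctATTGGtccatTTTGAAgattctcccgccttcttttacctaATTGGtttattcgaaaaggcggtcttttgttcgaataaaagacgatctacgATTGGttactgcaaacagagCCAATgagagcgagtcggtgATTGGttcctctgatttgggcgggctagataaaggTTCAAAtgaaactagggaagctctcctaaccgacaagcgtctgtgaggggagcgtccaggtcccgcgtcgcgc
Plk1: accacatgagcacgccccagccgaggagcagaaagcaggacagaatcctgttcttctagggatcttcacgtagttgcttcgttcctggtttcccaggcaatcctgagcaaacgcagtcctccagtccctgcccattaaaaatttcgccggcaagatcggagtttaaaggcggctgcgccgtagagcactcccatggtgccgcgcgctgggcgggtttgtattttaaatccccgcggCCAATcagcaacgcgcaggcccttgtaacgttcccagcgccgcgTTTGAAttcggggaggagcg
Aurka: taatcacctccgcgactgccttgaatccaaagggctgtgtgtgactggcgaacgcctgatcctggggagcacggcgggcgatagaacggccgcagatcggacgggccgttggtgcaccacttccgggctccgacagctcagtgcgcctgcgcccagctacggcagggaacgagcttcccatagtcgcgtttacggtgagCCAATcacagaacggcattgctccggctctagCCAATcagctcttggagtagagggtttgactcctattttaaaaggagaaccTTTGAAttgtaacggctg
Ccnb1: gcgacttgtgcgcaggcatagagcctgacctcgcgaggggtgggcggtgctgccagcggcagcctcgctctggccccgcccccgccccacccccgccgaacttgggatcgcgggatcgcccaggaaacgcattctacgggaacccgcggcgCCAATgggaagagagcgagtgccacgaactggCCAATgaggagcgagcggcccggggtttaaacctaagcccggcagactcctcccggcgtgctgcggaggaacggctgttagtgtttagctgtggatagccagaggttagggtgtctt
Mcm5: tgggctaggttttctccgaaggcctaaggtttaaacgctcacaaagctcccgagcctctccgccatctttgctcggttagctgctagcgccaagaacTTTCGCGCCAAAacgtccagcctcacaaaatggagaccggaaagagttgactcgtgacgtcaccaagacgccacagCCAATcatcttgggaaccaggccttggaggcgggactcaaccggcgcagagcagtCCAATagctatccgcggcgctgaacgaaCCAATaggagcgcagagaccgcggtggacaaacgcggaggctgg
Cdc6: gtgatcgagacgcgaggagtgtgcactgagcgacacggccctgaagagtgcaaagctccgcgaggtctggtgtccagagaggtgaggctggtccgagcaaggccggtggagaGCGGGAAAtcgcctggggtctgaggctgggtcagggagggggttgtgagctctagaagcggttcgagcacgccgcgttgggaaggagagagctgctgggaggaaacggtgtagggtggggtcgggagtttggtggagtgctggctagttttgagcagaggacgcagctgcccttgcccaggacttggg

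TTTGAA was in the window of 16 of 22 mitotic members with a promoter (72.7%) and of 2 of 15 S phase members (13.3%), against 20.2% of all 27025 genes in the promoter table. The 2 S phase members were Mcm2 and Cdc45. CCAAT was in 19 of 22 mitotic members (86.4%) and 9 of 15 S phase members (60%), against 41.1% of all genes. The E2F letters ran the other way, in 6 of 15 S phase members (40%), namely Cdc6, Cdt1, Mcm3, Mcm5, Mcm6 and Mcm7, and in 1 of 22 mitotic members (4.55%), Cdk1, against 2.12% of all genes. In Plk1 and Aurka TTTGAA lay just after the start, its first base at positions 31 and 33, while in Top2a it lay before it at -179 and, on the other strand, at -23. These matches describe the letters only and say nothing of whether a factor was bound in these cultures.

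Library totals were 4703902 to 5804033 counts, and the 7 epithelial marker genes summed to 2040 to 2590 CPM (counts scaled by TMM to a common library size) in every library. Libraries stood apart in the cell cycle genes themselves. IL-22 replicate 1 was the highest of its group for 47 of 50 members, including all 27 mitotic ones, and the highest of all 12 libraries for 42, whereas it was the highest of its group for 32.7% of all genes tested. IL-22 replicate 3 was the lowest of its group for 44 members, against 35.0% of all genes. IL-1b replicate 1 was the lowest of its group for 39 members, including all 27 mitotic ones, against 33.4% of all genes. The unstimulated libraries stood apart too. Replicate 3 was the highest of them for 42 members, against 37.1% of all genes, and replicate 2 the lowest for 32, against 28.4%. Replicate 2 of both cytokines was the lowest of its group for 37 members, against 38.1% of all genes. The median SD of a member's log2 CPM within a group was 0.38 with IL-22, 0.13 in unstimulated cultures, 0.16 with IL-1b and 0.14 with both cytokines, while over all genes it was 0.09 to 0.14. The main results on the members are given also without IL-22 replicate 1 or 3 or IL-1b replicate 1, and some without other libraries.

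Some marker sums differed between the libraries of a group. The 4 intestinal stem cell markers (Lgr5, Ascl2, Olfm4 and Smoc2) summed to 19.8, 8.20 and 5.28 CPM in IL-22 replicates 1 to 3, the order in which the mitotic members fell. In IL-1b replicates 1 to 3 they summed to 5.70, 12.4 and 8.48 CPM, again in the order of the mitotic members. In unstimulated replicates 1 to 3 they summed to 20.3, 13.1 and 13.8 CPM, and with both cytokines to 5.25, 5.49 and 9.44. In neither of these groups was that the order of the mitotic members. IL-1b replicate 1 also held the most leukocyte RNA, with 10 markers summing to 68.9 CPM against 18.6 and 15 in IL-1b replicates 2 and 3 and 3.03 to 5.09 where no cytokine was given, although the marker Tyrobp had no count in any library. The 8 fibroblast and smooth muscle markers reached at most 4.04 CPM, with Lum at 0 throughout. The 4 endothelial markers summed to 7.97 to 10.2 CPM in unstimulated cultures and 1.72 to 5.49 in the 6 libraries that received IL-22. The part of these cells in the results was not tested.

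**Figure D1:**
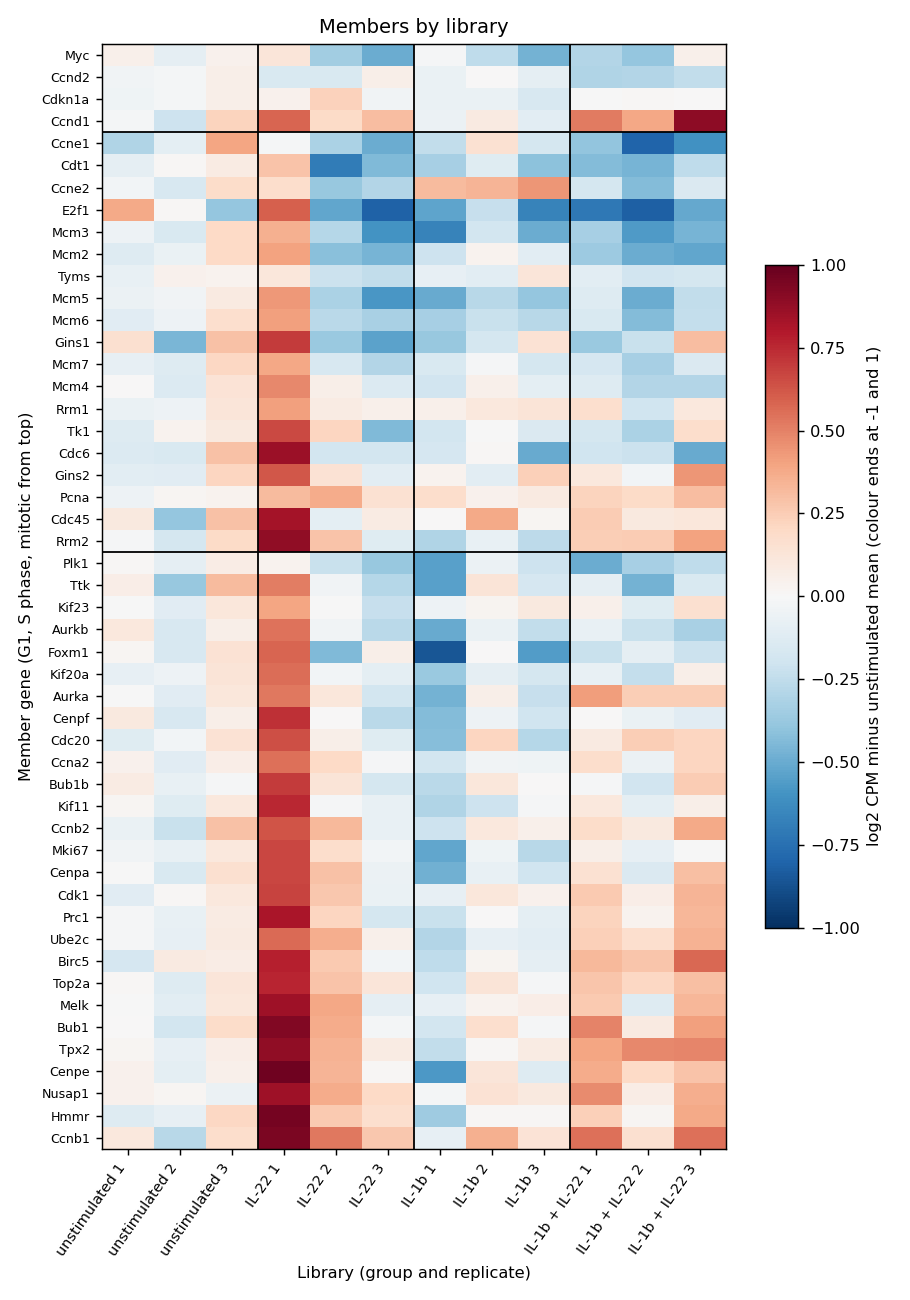
Heat map of the 50 members (rows) in the 12 libraries (columns); colour gives log2 CPM minus the mean of the 3 unstimulated libraries, ending at -1 and 1, and lines separate the roles and the groups. IL-22 replicate 1 is the highest library for 42 of 50 rows, and IL-1b replicate 1 is the lowest of its group in all 27 mitotic rows.

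IL-22 alone raised 5 of the 50 members (10.0%) and lowered none, at an adjusted p under 0.05 in edgeR's quasi-likelihood test over all genes; over all 13987 genes 22.5% were called, 11.9% higher and 10.6% lower. The 5 were the replication clamp gene Pcna and the mitotic genes Top2a, Ccnb1, Nusap1 and Tpx2. With both cytokines 3 members rose (Ccnd1, Pcna and Tpx2) and 3 fell (Ccnd2, Ccne1 and Plk1), 12.0% of the members against 27.0% of all genes (13.7% higher and 13.3% lower). With both cytokines against IL-1b alone 5 rose (Ccnd1, Birc5, Aurka, Tpx2 and Ube2c) and 2 fell (Ccnd2 and Ccne2), 14.0% of the members against 26.3% of all genes (13.3% higher and 13.0% lower). In each of these comparisons the share of members called was below that of all genes. DESeq2 called 6, 5 and 7 members in them, against 18.1%, 20.3% and 18.3% of all genes. The counts turn on single libraries. IL-22 replicate 1 is in neither group when both cytokines are compared with unstimulated or with IL-1b. It enters there through the shared fit, that is the genes kept, the scaling, the estimate of spread and the adjustment of p. Without it 13 members were called with both cytokines against unstimulated (5 higher and 8 lower) and 11 against IL-1b (8 higher and 3 lower). The shares of all genes called in that fit are not given here. Without any 1 unstimulated library 3 members were called with both cytokines, and without replicate 3 of both cytokines 2.

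IL-1b alone changed no member in edgeR's quasi-likelihood test, where 0.0715% of all genes were called, all of them higher and 0.0% lower; 3 members had an unadjusted p under 0.05, and DESeq2 called 0 members and 0.214% of all genes. All 3 IL-1b libraries lay above all 3 unstimulated ones for 2 members and below for 7, against 8.89% and 7.85% of all genes. Adding IL-1b to IL-22 changed no member either, where 0.0786% of all genes were called (0.0643% higher and 0.0143% lower); again 3 members had an unadjusted p under 0.05 and DESeq2 called 0, against 0.504% of all genes. All 3 libraries with both lay above all 3 with IL-22 for 0 members and below for 2, against 6.45% and 5.61% of all genes. The interaction of the cytokines was called for 0 members and 0.0% of all genes by edgeR, with 1 member at an unadjusted p under 0.05 and 0 members called by DESeq2, which called 0.0041% of all genes. Unadjusted p-values under 0.05 were held by 9.57%, 10.3% and 5.04% of all genes in these comparisons. The comparisons share control libraries, so their values for a member are set side by side below and are not independent of each other.

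**Figure D2:**
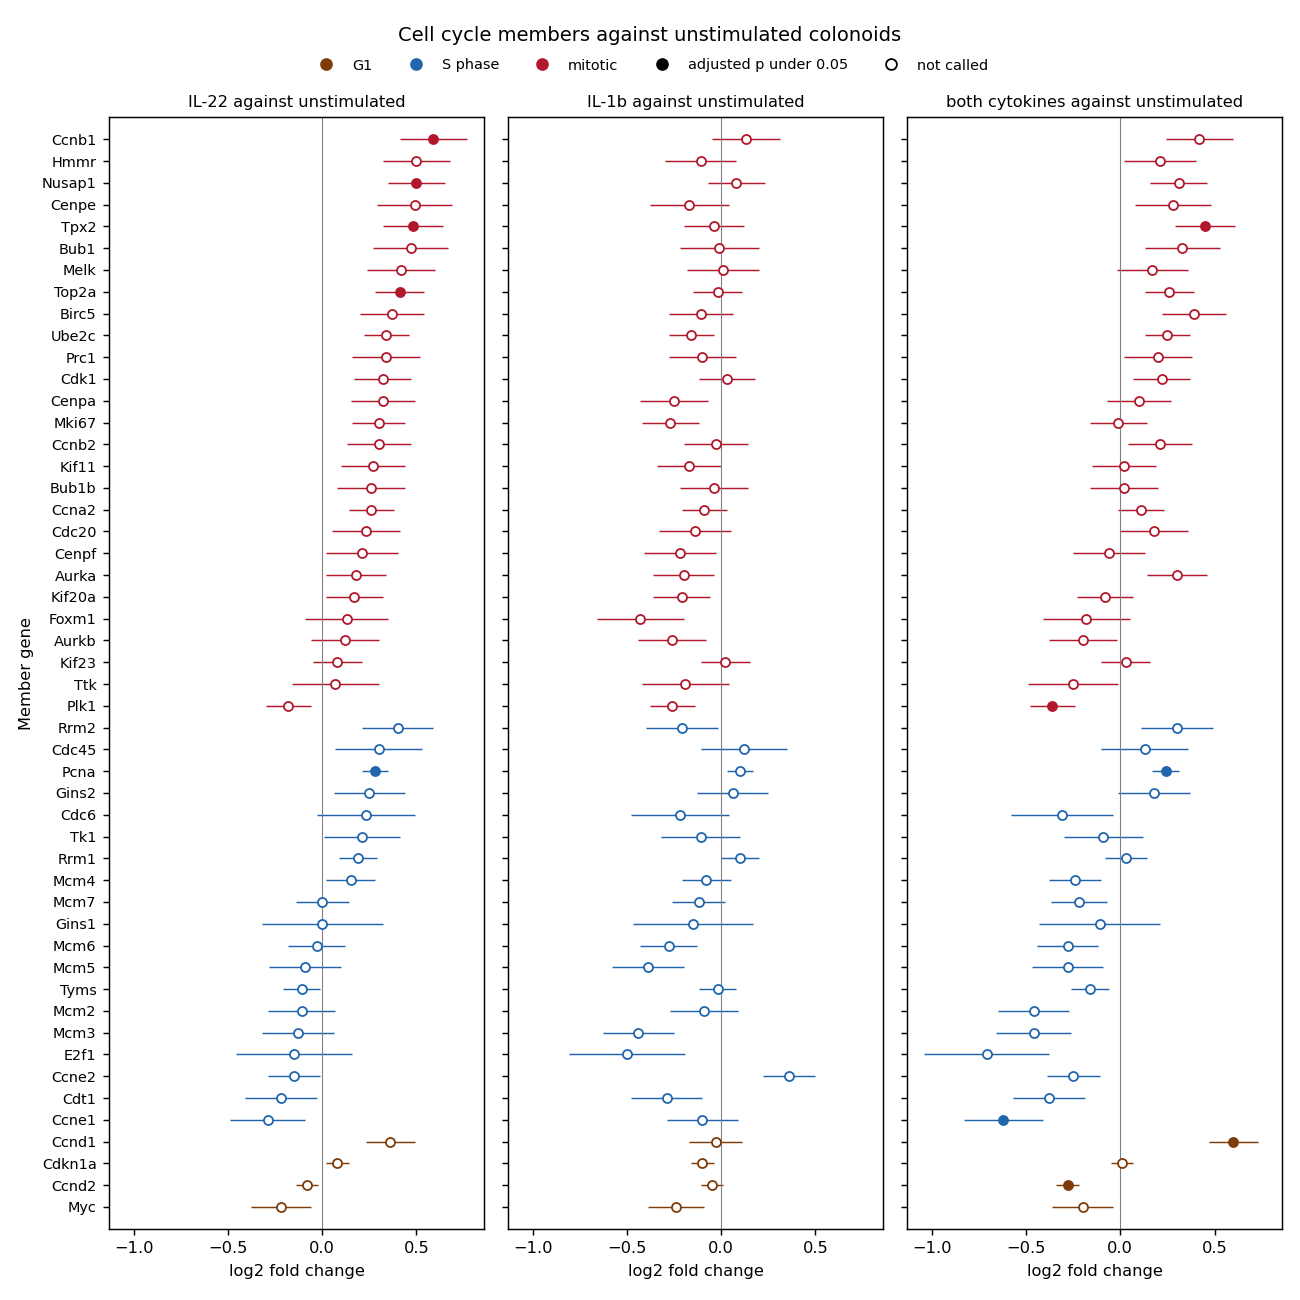
Log2 fold change of each member (x axis) against unstimulated cultures in 3 panels, with bars of 1 standard error from the edgeR fit; filled points passed an adjusted p of 0.05 over all genes. With IL-22, 26 of 27 mitotic members lie above 0, and with both cytokines the S phase members lie mostly below 0 and the mitotic ones mostly above.

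The calls of 2 G1 members held under every alternative run. Ccnd1 and Ccnd2 encode D-type cyclins, which bind Cdk4 and Cdk6 and carry cells from G1 towards S phase, and they moved in opposite directions when both cytokines were present. Ccnd1 (chr7:144929931-144939925, GRCm38) stood at 115, 101 and 136 CPM in unstimulated replicates 1 to 3, 174, 133 and 144 with IL-22, 112, 124 and 108 with IL-1b, and 167, 152 and 216 with both. All 3 libraries with both cytokines lay above all 6 libraries without IL-22, and the libraries with IL-22 alone overlapped the unstimulated ones. Its mean rose from 117 ± 17.7 CPM (SD, n = 3) to 178 ± 33.3 with both, a log2 fold change of 0.60 ± 0.13 (SE, 1.52-fold, edgeR adjusted p = 0.00419), and it stood 0.64 ± 0.13 above IL-1b alone (adjusted p = 0.00316). With IL-22 alone the log2 fold change was 0.36 ± 0.13 (adjusted p = 0.0686) and with IL-1b alone -0.03 ± 0.14 (adjusted p = 0.947).

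Ccnd2 (chr6:127125162-127152193) stood at 382, 386 and 408 CPM in unstimulated replicates, 352, 352 and 409 with IL-22, 375, 393 and 368 with IL-1b, and 318, 319 and 331 with both. The 3 libraries with both cytokines were the lowest of the 12. From 392 ± 13.8 CPM in unstimulated cultures Ccnd2 fell to 323 ± 7.45 with both, a log2 fold change of -0.28 ± 0.06 (edgeR adjusted p = 0.00329), and it was 0.23 ± 0.06 below IL-1b alone on the log2 scale (log2 fold change -0.23, adjusted p = 0.0117). Leaving out any 1 library kept the calls of Ccnd1 and Ccnd2 against both controls. Exons of Ccnd1 share 1100 bases and those of Ccnd2 740 bases with genes on the opposite strand, and the counting strand is not given in the sources used here.

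Myc, a transcription factor of growth and cell cycle entry, and Cdkn1a, which encodes the kinase inhibitor p21, passed no test. Myc stood at 52.9, 48.0 and 52.5 CPM in unstimulated replicates, 55.7, 40.1 and 36.2 with IL-22, 50.7, 42.9 and 36.9 with IL-1b, and 41.8, 39.0 and 53 with both. Each treated group held 1 library at 50.7 CPM or more and others below the unstimulated range. Cdkn1a stood at 250, 254 and 267 CPM unstimulated, 265, 301 and 251 with IL-22, 246, 245 and 230 with IL-1b, and 256, 259 and 258 with both. Its log2 fold changes were 0.08 ± 0.06 for IL-22, -0.10 ± 0.06 for IL-1b and 0.01 ± 0.06 for both cytokines. Per kilobase of exon it had the highest unstimulated level of the 50 members, at 72.3 CPM per kb.

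**Figure D3:**
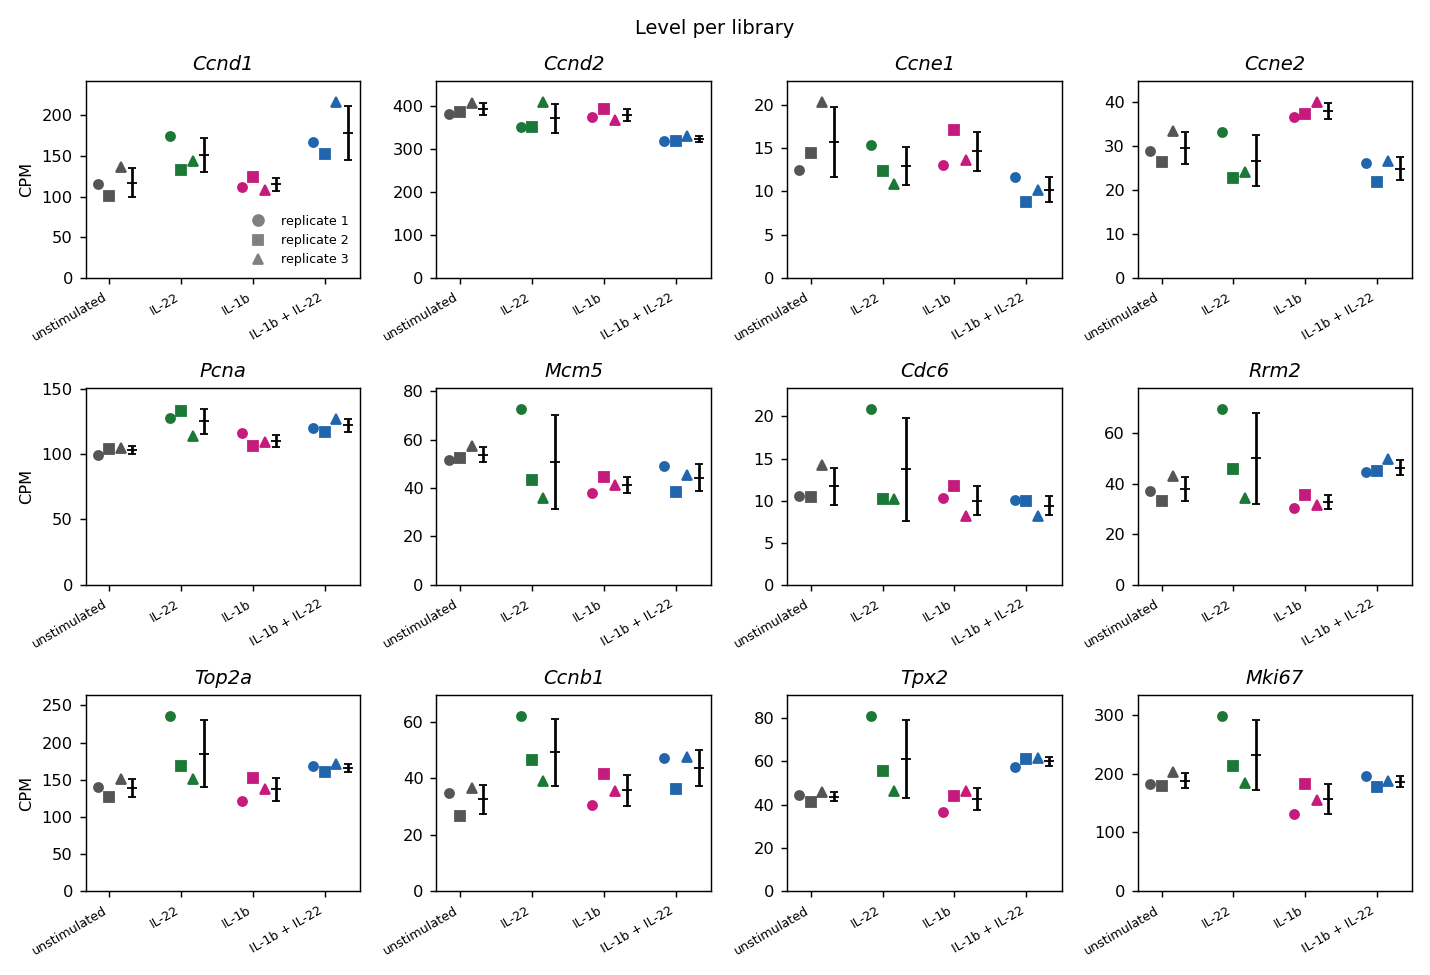
CPM per library of 12 members, by group (x axis); symbols give the replicate, and the black mark and bar give the mean and SD of 3 libraries. With both cytokines Ccnd1 lies at 152 to 216 CPM and Ccnd2 at 318 to 331, apart from the unstimulated libraries, while Mcm5, Cdc6, Rrm2 and Mki67 are highest in IL-22 replicate 1.

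Among the S phase members the cyclin E genes, whose products activate Cdk2 at the start of S phase, were called lower with both cytokines, Ccne1 against unstimulated cultures and Ccne2 against IL-1b alone. Ccne1 (chr7:38097984-38107534) stood at 12.5, 14.4 and 20.3 CPM in unstimulated replicates, 15.3, 12.4 and 10.9 with IL-22, 13.0, 17.1 and 13.6 with IL-1b, and 11.7, 8.82 and 10.1 with both. The 3 libraries with both lay below all unstimulated and IL-1b libraries. Ccne1 fell by 0.62 on the log2 scale against unstimulated (SE 0.21, edgeR adjusted p = 0.0378). Leaving out unstimulated replicate 2 or 3, or replicate 2 or 3 of both cytokines, ended this call (edgeR adjusted p = 0.0568 to 0.161), and without unstimulated replicate 3 the log2 fold change was -0.40.

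Ccne2 (chr4:11191351-11204779) stood at 28.9, 26.4 and 33.4 CPM in unstimulated replicates, 33.2, 22.6 and 24.0 with IL-22, 36.6, 37.2 and 39.9 with IL-1b, and 26.0, 21.8 and 26.6 with both. Its 3 IL-1b libraries were the highest of the 12. With IL-1b alone the log2 fold change was 0.36 ± 0.14 (edgeR adjusted p = 0.452). With both cytokines against IL-1b alone Ccne2 fell by 0.61 on the log2 scale (SE 0.14, adjusted p = 0.00535), a call kept without any 1 library, and its interaction had a log2 value of -0.46 ± 0.20 (edgeR adjusted p = 0.946). Ccne2 shares 609 exon bases with Ints8 on the opposite strand. E2f1, an activator of these genes, had log2 fold changes of -0.15 for IL-22, -0.50 for IL-1b and -0.71 for both cytokines, none called, at 4.51 to 12.0 CPM.

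Licensing and helicase genes passed no test in the full data. The 6 Mcm genes had log2 fold changes of -0.13 to 0.15 with IL-22, of -0.44 to -0.08 with IL-1b and of -0.46 to -0.22 with both. Mcm5 stood at 51.7, 52.6 and 57.3 CPM in unstimulated replicates, 72.7, 43.2 and 36.0 with IL-22, 38.0, 44.4 and 41.1 with IL-1b, and 49.2, 38.2 and 45.3 with both. The first IL-22 library lay above the unstimulated range and the other two below it. Without IL-22 replicate 1 the log2 fold change with IL-22 went from -0.09 to -0.45 for Mcm5 (edgeR adjusted p = 0.0190). It went from -0.11 to -0.45 for Mcm2 (edgeR adjusted p = 0.0153) and from -0.22 to -0.56 for Cdt1 (edgeR adjusted p = 0.0146). All 3 were then called lower, and the share of all genes called lower in that fit is not given here.

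Cdc6 stood at 10.5, 10.4 and 14.2 CPM in unstimulated replicates, 20.9, 10.2 and 10.2 with IL-22, 10.3, 11.7 and 8.15 with IL-1b, and 10.1, 10.0 and 8.15 with both. Only IL-22 replicate 1 stood above the unstimulated libraries. The log2 fold changes of Cdc45 were 0.30 with IL-22 and 0.13 with both, and those of Gins2 0.25 and 0.18, although 2758 of the 4097 exon bases of Gins2 overlap Gse1 on the opposite strand. Gins1 had 0.00 and -0.11. None of these was called.

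Pcna, the sliding clamp that holds DNA polymerases on the template, was called higher in the groups with IL-22. Pcna (chr2:132249162-132253314) stood at 99.1, 104 and 105 CPM in unstimulated replicates, 128, 133 and 114 with IL-22, 116, 106 and 109 with IL-1b, and 120, 117 and 127 with both. Every library with IL-22 lay above every unstimulated one. The rise was from 103 ± 3.31 to 125 ± 9.59 CPM with IL-22 (log2 fold change 0.28 ± 0.07, edgeR adjusted p = 0.00758), which was kept without any 1 library, with adjusted p-values of 0.00228 to 0.0359. With both it was 0.24 ± 0.07 (edgeR adjusted p = 0.0146), but not without unstimulated replicate 1 (0.0543) or replicate 3 of both (0.0675). Reads of the annotated copies Pcna-ps1 and Pcna-ps2 may be split with it.

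The nucleotide supply members passed no test. Rrm2, the regulated subunit of ribonucleotide reductase, had log2 fold changes of 0.40 ± 0.19 with IL-22 (edgeR adjusted p = 0.147), -0.21 ± 0.19 with IL-1b and 0.30 ± 0.19 with both, and Rrm1, its partner, had 0.19, 0.10 and 0.03. Tyms, which makes thymidylate, had -0.11 with IL-22 and -0.16 with both, and Tk1, which salvages thymidine, 0.21 and -0.09.

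The mitotic members lay above unstimulated in nearly all cases with IL-22, with 26 of 27 log2 fold changes above 0 and a median of 0.30, against 0.00 over all genes. The exception was Plk1 at -0.18. Ccnb1 encodes cyclin B1, the partner of Cdk1 at mitotic entry, and stood at 34.7, 26.7 and 36.4 CPM in unstimulated replicates, 62.1, 46.5 and 38.9 with IL-22, 30.5, 41.4 and 35.6 with IL-1b, and 47.2, 36.1 and 47.4 with both. All 3 IL-22 libraries lay above all unstimulated ones. Ccnb1 rose by 0.59 ± 0.18 on the log2 scale with IL-22 (edgeR adjusted p = 0.0272). An annotated copy, Ccnb1-ps, may share its reads.

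Tpx2, which activates Aurora A on spindle microtubules, stood at 44.4, 41.3 and 45.7 CPM in unstimulated replicates, 81.1, 55.8 and 46.4 with IL-22, 36.8, 44.2 and 46.4 with IL-1b, and 57.5, 61.2 and 61.4 with both. Libraries with both cytokines lay close together and above all libraries without IL-22. Tpx2 was the one mitotic gene called in all 3 comparisons with a call, at 0.48 ± 0.16 with IL-22 (edgeR adjusted p = 0.0411), 0.45 ± 0.16 with both (0.0444) and 0.50 ± 0.16 for both against IL-1b (0.0307). Each of these calls was lost without several single libraries, with log2 fold changes against unstimulated of 0.22 to 0.65 with IL-22 and 0.42 to 0.48 with both.

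Nusap1, a protein that bundles spindle microtubules, stood at 26.2, 25.8 and 24.5 CPM in unstimulated replicates, 45.8, 33.0 and 29.2 with IL-22, 25.2, 28.2 and 27.3 with IL-1b, and 35.3, 26.9 and 32.8 with both. With IL-22 it rose by 0.50 ± 0.15 on the log2 scale (edgeR adjusted p = 0.0291). Top2a, the topoisomerase that untangles sister chromosomes, stood at 140, 127 and 151 CPM unstimulated, 236, 169 and 151 with IL-22, 121, 152 and 138 with IL-1b, and 168, 160 and 171 with both. IL-22 replicate 3 was at the level of the highest unstimulated library, so the groups met. Top2a rose by 0.41 ± 0.13 with IL-22 (edgeR adjusted p = 0.0385).

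These mitotic calls leaned on 1 library. Without IL-22 replicate 1 the log2 fold changes with IL-22 were 0.38 for Ccnb1, 0.22 for Tpx2, 0.28 for Nusap1 and 0.20 for Top2a, none called by edgeR (adjusted p = 0.133 to 0.198), and 16 of 27 mitotic members lay above 0. Without IL-22 replicate 3, the library with the lowest values, 20 of the 50 members were called, 19 higher and Ccnd2 lower. The share of all genes called in that fit is not given here. Mki67, the source of the Ki-67 proliferation antigen, stood at 183, 178 and 202 CPM in unstimulated replicates, 298, 212 and 184 with IL-22, 131, 182 and 155 with IL-1b, and 195, 177 and 187 with both. It followed the same order of libraries, and its log2 fold change with IL-22 was 0.30 ± 0.14 (edgeR adjusted p = 0.154), or 0.07 without replicate 1. Calls were also lost without single unstimulated libraries, and the count of members called with IL-22 was 2 without unstimulated replicate 1 and 1 without replicate 2.

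Plk1, a kinase of mitotic entry, spindle assembly and cytokinesis, was the only mitotic member below 0 with IL-22 and the only one called lower. With both cytokines 7 of 27 mitotic members lay below 0. Its values were 79.1, 73.7 and 82.7 CPM in unstimulated replicates, 80.5, 67.3 and 60.2 with IL-22, 53.7, 75.1 and 68.0 with IL-1b, and 55.5, 62.3 and 65.9 with both. With both cytokines Plk1 fell below all unstimulated libraries, by 0.36 on the log2 scale (SE 0.12, edgeR adjusted p = 0.0425). This call was lost without any 1 of the 3 unstimulated libraries or of the 3 with both, and also without IL-22 replicate 2 or IL-1b replicate 3 (edgeR adjusted p = 0.0507 to 0.146). Measured against the mean of the other 26 mitotic members in the same library, Plk1 stood at 0.27 to 0.63 log2 units in the 6 libraries with IL-22 and at 0.72 to 0.98 in the 6 without. Kif23 was also lower in all 6 libraries with IL-22 in these terms. So were 10.5% of all genes, each set against the mean of the mitotic members. That share is not a like background, since genes in general did not rise and fall between libraries with the mitotic members.

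With both cytokines against IL-1b alone 25 of 27 mitotic members lay above 0, with a median of 0.25. Aurka, the Aurora A kinase of spindle poles, stood at 29.2, 27.1 and 31.7 CPM in unstimulated replicates, 42.1, 31.7 and 25.8 with IL-22, 21.1, 30.5 and 24.9 with IL-1b, and 39.1, 34.7 and 34.8 with both. Birc5, or survivin, a subunit of the chromosomal passenger complex, stood at 28.3, 33.8 and 33.4 CPM unstimulated, 54.5, 38.1 and 31.1 with IL-22, 26.6, 32.4 and 29.8 with IL-1b, and 39.8, 38.4 and 47.2 with both. Ube2c, the ubiquitin-conjugating enzyme of the anaphase-promoting complex, stood at 35.6, 34.0 and 38.3 CPM unstimulated, 53.3, 46.1 and 37.2 with IL-22, 29.4, 33.9 and 33.4 with IL-1b, and 42.4, 40.4 and 45.7 with both. In all of them the libraries with both cytokines lay above the unstimulated and the IL-1b ones.

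Against IL-1b alone Aurka rose by 0.51 ± 0.16 on the log2 scale (edgeR adjusted p = 0.0342), Birc5 by 0.50 ± 0.17 (0.0424) and Ube2c by 0.41 ± 0.12 (0.0212). Without IL-1b replicate 1 the values were 0.38, 0.42 and 0.34, with Tpx2 at 0.40, and none of these 4 mitotic calls was kept (edgeR adjusted p = 0.0908 to 0.138), leaving Ccnd1, Ccnd2 and Ccne2 called. The same 3 genes were the calls left without replicate 1 or replicate 3 of both cytokines. With IL-1b against unstimulated the median of the mitotic members was -0.11, with 22 of 27 below 0, and without IL-1b replicate 1 it was -0.03, with 15 of 27 below 0. Without unstimulated replicate 3, 18 of 27 mitotic members were below 0, and 11 of 19 S phase members were, against 14 with all libraries.

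The other mitotic members passed no test in any comparison. With IL-22 their log2 fold changes ran from 0.07 for Ttk, a spindle checkpoint kinase, to 0.50 for Hmmr, a spindle protein. Those of the checkpoint genes Bub1 and Bub1b were 0.47 and 0.26, those of Cdk1, Ccna2 and Ccnb2 were 0.32, 0.26 and 0.30, and that of Cdc20, which activates the anaphase-promoting complex, was 0.23. The motors and midzone genes Kif11, Kif20a, Kif23 and Prc1 had 0.27, 0.17, 0.08 and 0.34, and the centromere genes Cenpa, Cenpe and Cenpf 0.32, 0.49 and 0.21. Aurkb, Melk and Foxm1 had 0.12, 0.42 and 0.13. With both cytokines the values of these genes and Mki67 lay between -0.25 (Ttk) and 0.33 (Bub1).

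Set side by side, the S phase members had lower log2 fold changes than the mitotic members wherever IL-22 was given. The medians of the log2 fold change were 0.00 for the 19 S phase members and 0.30 for the 27 mitotic ones with IL-22, -0.24 and 0.18 with both, and -0.11 and -0.11 with IL-1b, while all genes had medians of -0.01 to 0.00. Log2 fold changes above 0 were held by 10 of 19 S phase members with IL-22, 5 with both and 5 with IL-1b, and by 26, 20 and 5 of 27 mitotic members. With IL-22 these counts moved with 1 library: without replicate 1 they were 4 of 19 and 16 of 27, with medians of -0.23 and 0.09, and without replicate 3 they were 15 of 19 and 26 of 27. With both cytokines against IL-22 alone 0 of 19 and 2 of 27 lay above 0, but 10 and 19 did without IL-22 replicate 1, and for the interaction 6 and 8 became 14 and 25. With both cytokines 10 of 19 S phase members had all 3 libraries below all 3 unstimulated ones and 7 of 27 mitotic members all 3 above, whereas over all genes 20.5% lay wholly below and 21.8% wholly above, so the mitotic share was near that of all genes. With IL-22 alone 1 S phase and 3 mitotic members lay wholly above and 0 wholly below, against 17.7% and 17.0% of all genes. Against IL-1b alone 4 S phase members lay wholly below and 8 mitotic members wholly above, against 21.9% and 22.5%.

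**Figure D4:**
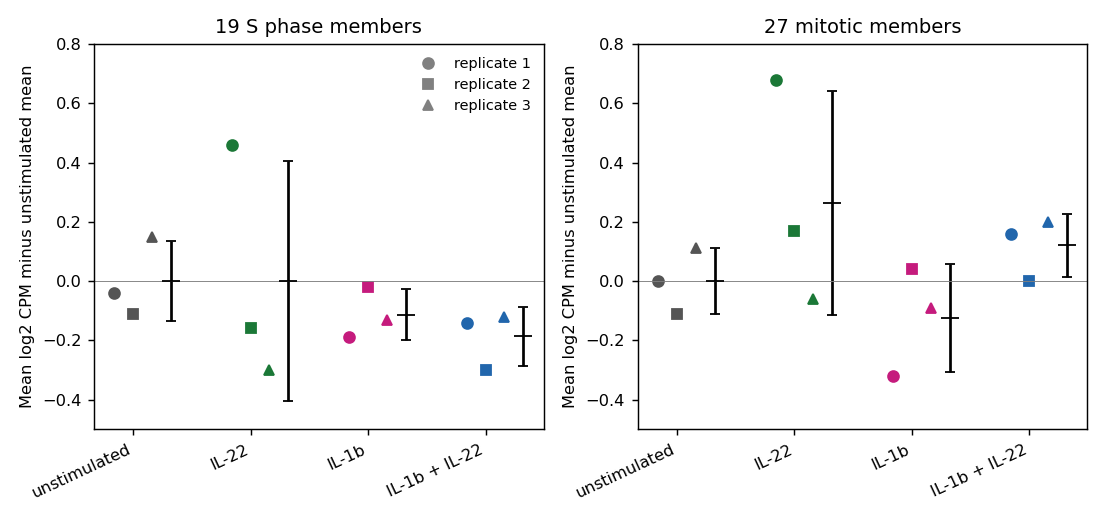
Mean log2 CPM of the 19 S phase members (left) and the 27 mitotic members (right) in each library, minus the mean of the unstimulated libraries; symbols give the replicate and the black mark and bar the mean and SD of 3 libraries. IL-22 replicate 1 lies at 0.46 and 0.68, and replicates 2 and 3 at -0.16 and -0.30 for S phase and 0.17 and -0.06 for mitosis.

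The difference between the 2 classes within a library varied less than either class in 3 of the 4 groups; with IL-1b its SD of 0.10 was above that of the S phase members, 0.09. The mean log2 CPM of the S phase members minus that of the mitotic members was -0.48, -0.43 and -0.40 in unstimulated replicates, -0.66, -0.76 and -0.67 with IL-22, -0.31, -0.50 and -0.48 with IL-1b, and -0.74, -0.74 and -0.76 with both. The 6 libraries that received IL-22 lay at -0.76 to -0.66 and the 6 others at -0.50 to -0.31, with no overlap. The group means were -0.44 ± 0.04 (SD, n = 3) unstimulated, -0.70 ± 0.06 for IL-22, -0.43 ± 0.10 for IL-1b and -0.75 ± 0.01 for both cytokines. Since the members were chosen with results known, no p is given for this difference.

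Leaving out IL-1b replicate 1 moved the IL-1b mean to -0.49 ± 0.01 (n = 2), and the change from unstimulated from 0.01 to -0.05. The change with IL-22 was -0.26, or -0.28 without IL-22 replicate 1, and -0.28 to -0.23 when any 1 library of the groups compared was left out. With both it was -0.31 (-0.33 to -0.29), and against IL-1b alone -0.32, or -0.26 without IL-1b replicate 1. Adding IL-1b to IL-22 gave -0.05 (-0.08 to -0.03).

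**Figure D5:**
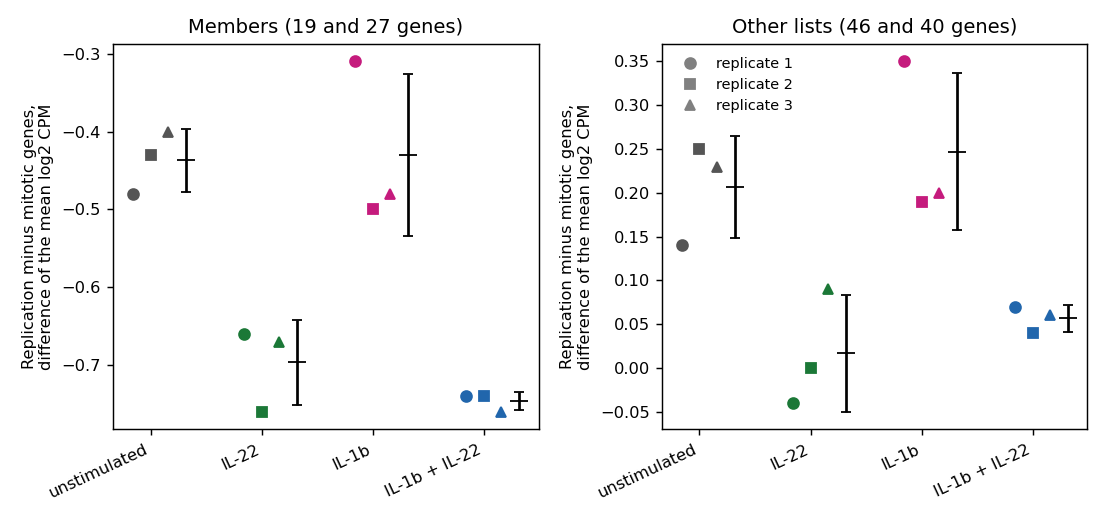
Replication genes minus mitotic genes, as the difference of their mean log2 CPM, per library for the members (left, 19 and 27 genes) and for other replication and mitosis genes (right, 46 and 40 genes); symbols give the replicate and the black mark and bar the mean and SD of 3 libraries. In the members the 6 libraries with IL-22 lie at -0.76 to -0.66, below the 6 without at -0.50 to -0.31, and in the other genes they lie at -0.04 to 0.09, below 0.14 to 0.35.

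The comparison of the classes depends on what each is set against. Against the mean of the mitotic members in the same library, the S phase members were lower by a median of 0.28 log2 units in the 6 libraries with IL-22 than in the 6 without (-0.28), and the median gene of all those tested was lower by nearly as much (-0.26). In those terms 7 of 19 S phase members (36.8%) had all 6 libraries with IL-22 below all 6 without, namely Ccne1, Ccne2, Cdt1, Mcm2, Mcm4, Mcm7 and Tyms, against 10.5% of all genes. Among the mitotic members, each set against the mean of the other 26, Plk1 and Kif23 did so (7.41%). The share of all genes is not a like background for these counts. Members rose and fell together between libraries of a group, and the subtraction takes much of that out of them. In a gene that did not share it the subtraction adds it, which makes overlap more likely. Rrm2 stood apart from the other S phase members, with a difference of 0.17 on this scale. The nearest to it were Pcna (-0.04), Gins2 (-0.09) and Cdc45 (-0.11), while Ccne1 and Ccne2 had -0.64 each and Mcm2 -0.52.

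Genes of the same processes outside the 50 members also separated the libraries with IL-22 from those without. The difference between 46 other replication genes (polymerases, clamp loader, origin recognition, licensing, nucleotide and histone supply) and 40 other mitosis genes had a mean of 0.21 ± 0.06 where no cytokine was given, 0.02 ± 0.07 for IL-22, 0.25 ± 0.09 for IL-1b and 0.05 ± 0.01 for both. In IL-1b replicate 1 it was 0.35, against 0.19 and 0.20 in the other IL-1b libraries, so that library stood apart here as in the members. They come from the same libraries as the members. Their lists, like the members, were chosen with earlier results of these data known.

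With IL-22 the 20 polymerase, clamp loader and Okazaki fragment genes had 1 call higher (Pold3, 0.39) and 1 lower (Rfc2, -0.27), and a median of -0.02. Over all genes 11.9% were called higher and 10.6% lower. The 16 origin genes had Orc1, the largest subunit of the origin recognition complex, lower (-0.65 ± 0.18, edgeR adjusted p = 0.0192). With both cytokines these lists had 0 calls higher and 4 lower, namely Orc1 (-0.76), Mcmbp (-0.23), Rpa1 (-0.35) and Rfc3 (-0.39), against 13.3% of all genes called lower. Over all 46 replication genes 0 were called higher and 7 lower with both, or 11 lower without IL-22 replicate 1. Their median was -0.09, or 0.02 with 5 lower without unstimulated replicate 3. Of the supply genes Dck, a kinase of deoxycytidine salvage, and Dnmt1, the maintenance DNA methyltransferase, fell with both cytokines (-0.51 and -0.49).

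The 40 other mitosis genes had 2 calls higher with IL-22, the chromokinesin Kif4 (0.55) and the cohesin protector Sgol1 (0.59), and 1 lower, Pttg1 (-0.47), which encodes the separase inhibitor securin. Over all genes tested 11.9% were called higher and 10.6% lower. The list medians were 0.18 for the 20 spindle checkpoint and kinetochore genes and 0.24 for the 20 motor, condensin and entry genes, and 0.20 over the 40. Without IL-22 replicate 1 the median of the 40 was 0.02, with 0 calls higher and 2 lower. With both cytokines Zwint, a kinetochore gene, rose (0.44), and Pttg1 (-0.37) and Wee1, the kinase that holds Cdk1 inactive, fell (-0.87 ± 0.15, edgeR adjusted p = 0.000722). These were the only calls among the 40, where 13.7% of all genes were called higher and 13.3% lower. Against IL-1b alone Kif4, Cdca8 and Pkmyt1 rose by 0.49, 0.39 and 0.27, and Wee1 and Pttg1 fell (-0.69 and -0.56). That was 3 of 40 called higher and 2 lower, against 13.3% and 13.0% of all genes. Without IL-1b replicate 1 none of the 40 was called higher in that comparison, 2 were called lower, and their median went from 0.14 to 0.06. Without IL-22 replicate 1, 5 were called higher.

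Of 17 E2F, DREAM and RB family genes 2 rose with IL-22, E2f2 (0.40) and Lin54 (0.36), and 3 fell, of which Tfdp2 (-0.51) and Rbl2 (-0.42) had the largest changes, against 11.9% of all genes called higher and 10.6% lower. With both cytokines 2 rose and 5 fell, where 13.7% and 13.3% of all genes did, with E2f2 at 0.71 ± 0.06 (edgeR adjusted p = 1.9e-06), Rbl2, which encodes the RB relative p130 of the DREAM complex, at -0.58 ± 0.09 (0.000506), Lin52 at -0.58 and Rbl1 at -0.45. Of 12 other G1 cyclins, kinases and inhibitors only Cdkn2b, a Cdk4 and Cdk6 inhibitor, passed with IL-22 (-0.20), none with both, and Ccnd3 alone against IL-1b (0.18). IL-1b alone changed none of the genes of these lists in edgeR's test.

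Of 16 p53 target genes 4 rose with IL-22, among them Gdf15 (0.69), Tnfrsf10b (0.37) and Mdm2 (0.28), and Bbc3 fell (-0.48). Of all genes 11.9% rose and 10.6% fell. Cdkn1a, a p53 target among the members, passed no test. With both cytokines Tnfrsf10b (0.61) and Mdm2 (0.27) rose and Trp53inp1 fell (-0.41), where 13.7% and 13.3% of all genes did. The list's median was -0.03 with IL-22 and 0.01 with both, near that of all genes.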

How the data were processed

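The values are gene counts that the authors deposited as 1 table for all 12 libraries. Per the labels, colonoid polyA RNA was made into libraries with a stranded TruSeq kit. The submitters' processing notes name the genome build mm10. The sources used here give no aligner, annotation or counting strand. Totals were 4703902 to 5804033 counts per library, and each group value rests on 3 libraries.

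From these counts edgeR 4.0.16 (R 4.3.3) kept genes by filterByExpr, scaled by TMM and fitted 1 mean per group over all 12 libraries. Its quasi-likelihood test gave contrasts with Benjamini-Hochberg adjustment over 13987 genes, and an adjusted p under 0.05 was called. Log2 fold changes carry SEs from that fit, and group means carry SDs of TMM-scaled CPM. Any of the 50 members could be named. Values per library were given for the 4 G1 members, Mki67, Top2a, Ccnb1, Mcm5, Pcna and Cdc6, and for up to 6 called members per class and comparison, by size of change. In the other lists up to 4 called genes per list and comparison were named, by size. The procedure was tested on simulated data. Alternatives were DESeq2 1.42.0, other scalings and filters, a replicate block, correction for the count per exon base of each gene, and leaving out libraries. The members and the other gene lists were chosen with earlier results of these data known. Positions are from GENCODE M21 (GRCm38), and promoters from RefSeq (GRCm38.p6). Some genes of the other lists are not reported here.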

Additional observations from a re-analysis of the deposited data

How the results depend on the processing

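No called change of a member turned its sign under the alternatives run. Values that were not called did, most often without IL-22 replicate 1: for both cytokines against IL-22 alone the median of the S phase members went from -0.19 to 0.01 and that of the mitotic members from -0.18 to 0.04. The S phase minus mitotic differences were recomputed with other scalings, a smaller count added before the log, the lowest members dropped, or libraries left out. They moved by less than 1 SD, taken within groups and pooled over the 4 groups, although that for IL-1b, 0.01, lay between -0.05 and 0.05. The SD of the IL-1b group was 0.10, or 0.01 without its replicate 1. That library thus widened the SD against which leaving it out was judged. A scaling of a whole library nearly cancels in such a difference, so the scalings could hardly move it. DESeq2, the replicate block and the other alternatives were not applied to it. Of 50 members, 5 were called with IL-22, 2 when scaled by total counts only, 17 with no filter on low counts, 2 in a fit of only the libraries compared, and 1 to 20 when 1 library was left out. With both cytokines the 6 calls became 11 with no filter, 10 in a fit of only the libraries compared, 14 (6 higher and 8 lower) without IL-22 replicate 1 and IL-1b replicate 1 together, a choice made after seeing the data, and 2 to 13 when 1 library was left out. Against IL-1b alone the 7 calls became 4 with total counts, 11 with no filter, 13 in a fit of only the libraries compared, and 3 to 11 when 1 library was left out. The 0 calls of the remaining comparisons stayed 0. The cause of these moves was not tested. Beyond DESeq2 and total counts with IL-22, the share of all genes called in each run is not given here. A move in these counts therefore cannot be told from a move over all genes. Calls that held under every alternative were Pcna with IL-22, Ccnd1 and Ccnd2 with both cytokines against either control, and Ccne2 with both against IL-1b. The called change of Pcna with both cytokines was 0.15 (adjusted p = 0.0596) when corrected for count per exon base. With IL-22, total-count scaling shifted the median of all genes by -0.06 and called 1206 genes higher and 1991 lower, against 1661 and 1483 with TMM. Deviations from the group means correlated at -0.188 to 0.179 between same-numbered libraries and at -0.235 to 0.218 between differently numbered ones. With 3 libraries per group these values cannot show whether the numbers pair the samples. A replicate block gave 3 calls with IL-22, 3 with both cytokines and 5 for both against IL-1b. Depth limits the lowest members most, such as E2f1 with 23 to 58 counts a library.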
